A study of Rattus norvegicus with 6 samples.

Results

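Transcripts of 8 p53 and growth arrest genes were followed in rat brain tissue after intracerebral hemorrhage (ICH), in which blood escapes into the tissue: Mdm2, Cdkn1a, Ccng1, Sesn1, Gadd45a, Gadd45b, Gadd45g and Btg2. A probe was assigned to a gene where the accession that the scanner files give for it is a RefSeq transcript of that gene. By this rule 7 of the 8 genes had a probe, with 9 probes in all out of the 30367 on the array, and Sesn1 had none and was not analysed here. The 7 genes were all among the 12963 gene symbols tested, within 22179 rows that also hold probes without a symbol. All 9 probes were well above background on all 6 arrays.

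The arrays were single-channel, with 3 from rats of a sham operation group and 3 from rats with ICH, 1 array per sample. The sham samples are labelled as brain tissue and the ICH samples as peripheral brain tissue. The title speaks of injury around the hematoma, the pool of escaped blood. All 6 samples carry the label day 1 under age, without saying from what it is counted, and the design text calls the ICH samples transfected, which no other label does. Strain, sex, how the hemorrhage was made and whether any animals were pooled are not given in the sources used here. The labels call the samples biological replicates.

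The p53 protein is a transcription factor that is held low in resting cells by the ubiquitin ligase Mdm2 and accumulates when DNA is damaged or when the cell is stressed in other ways. It then switches on genes that stop the cell cycle, repair DNA or start cell death, and it switches on Mdm2 itself, which closes a feedback loop. In brain tissue several of the same genes also answer to signals that do not need p53: Gadd45b, Gadd45g and Btg2 are induced by neuronal activity, growth factors or cytokines. A difference in these transcripts is therefore no measure of p53 activity by itself.

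The ICH arrays differed more from each other than the sham arrays did: the median SD of a row was 0.31 among ICH and 0.14 among sham arrays. On the first principal component of all rows ICH 2 stood at 102.1, against 10.2 for ICH 1, −23.9 for ICH 3 and −33.2 to −24.7 for the sham arrays. All 11 neuron markers tested were well above background on all 6 arrays. Levels are log2 values relative to the 75th percentile of each array, a signal of 5726 to 6676. Differences are ICH minus sham ± SE, with n = 3 arrays in each group, from limma with Benjamini-Hochberg adjustment over all rows. In bulk tissue, fewer cells of a type and less RNA per cell cannot be told apart.

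None of the 7 genes passed an adjusted p under 0.05, and none did among all rows either (0% of rows). At an unadjusted p under 0.05 the count was again 0 of 7, where 14.7% of all rows had such a p. Sham and ICH values overlapped in all 7 genes, whereas they did not overlap in 27.5% of rows, 11.0% with ICH above and 16.5% with ICH below. The median difference over the 7 genes was 0.01, with 4 genes higher in ICH and 3 lower, beside a median of −0.04 over all rows, of which 45.9% were higher. Spread between arrays differed among the genes: the SD over all 6 arrays was 1.04 for Ccng1, 0.70 for Btg2 and 0.52 for Cdkn1a, and 0.12 to 0.40 for the others.

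**Figure D1:**
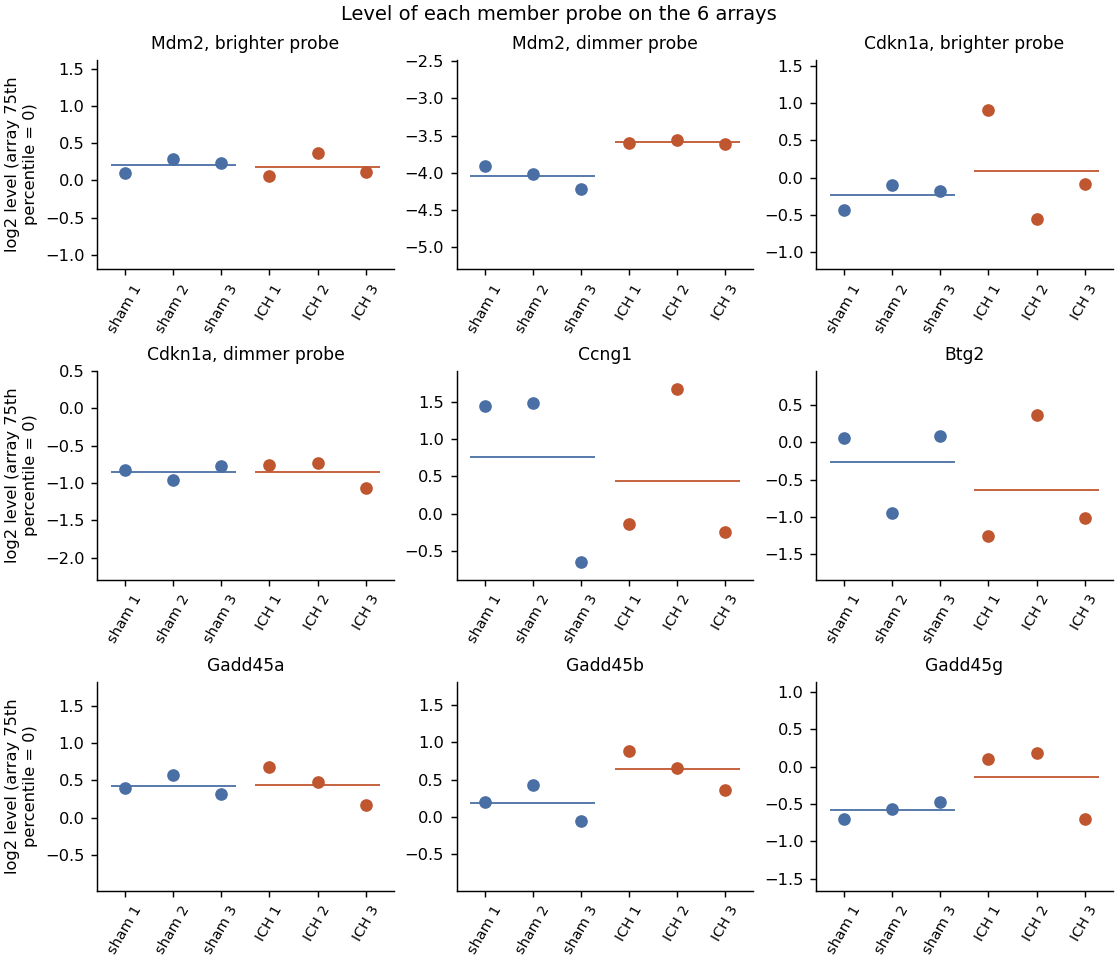
Each panel plots the log2 level of 1 member probe on the 6 arrays (y axis, 0 = 75th percentile of the array, all panels spanning the same range), with sham arrays in blue, ICH arrays in orange and lines at the group means. Sham and ICH points overlap in every panel except that of the dimmer Mdm2 probe, and Ccng1 splits into high and low arrays within both groups.

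Mdm2, the ligase that marks p53 for destruction, had 2 probes, and they differed. The brighter probe read 0.10, 0.28 and 0.24 on sham arrays 1, 2 and 3, with 0.06, 0.37 and 0.11 on ICH arrays 1, 2 and 3. The values of both groups lay within 0.30 of each other, and their SD over all 6 arrays was 0.12. The difference was −0.03 ± 0.14 (95% interval −0.37 to 0.32, adjusted p = 0.934). A doubling of the transcript, 1 log2 unit, lay outside this interval.

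The dimmer Mdm2 probe read −3.90, −4.02 and −4.22 on sham 1, 2 and 3, with −3.60, −3.56 and −3.61 on ICH 1, 2 and 3. All ICH arrays lay above all sham arrays, with an SD of 0.03 among the ICH and 0.16 among the sham arrays. The difference was 0.46 ± 0.14, with an unadjusted p of 0.0145 and an adjusted p of 0.289 by limma over 24646 single probes. In that fit 6.59% of probes had such a p with a higher level in ICH, 0% passed the adjusted test, and 11.5% had all ICH arrays above all sham arrays. Its processed signal was 307 to 398 on sham and 536 to 566 on ICH arrays, far under the 75th percentile. Both probes carry the same transcript accession, so the files do not say which part of the transcript each one reads.

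Cdkn1a encodes the inhibitor of cyclin-dependent kinases through which p53 stops the cell cycle. Its brighter probe read −0.43, −0.09 and −0.18 on sham 1, 2 and 3, with 0.91, −0.56 and −0.08 on ICH 1, 2 and 3. ICH 1 was thus the highest array and ICH 2 the lowest, with ICH 3 just above sham 2. The difference was 0.32 ± 0.38 (95% interval −0.59 to 1.24, adjusted p = 0.673). It was −0.09 without ICH 1 and 0.65 without ICH 2. This probe has 1 spot per array, so that the high value on ICH 1, a processed signal of 12218 against 4411 to 5676 on sham arrays, rests on a single spot.

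The other Cdkn1a probe, with 2 spots per array, did not show the high value on ICH 1. It read −0.83, −0.96 and −0.77 on sham 1, 2 and 3, with −0.76, −0.73 and −1.07 on ICH 1, 2 and 3. ICH 1 and ICH 2 lay just above the sham arrays and ICH 3 just below them. The difference was 0.0029 ± 0.15 (95% interval −0.36 to 0.37, adjusted p = 0.993). The gene whose levels were most like those of the brighter probe was Cd82 (Pearson r = 0.998 over the 6 arrays), a tetraspanin gene that is itself a reported p53 target. The search took in 7086 genes, those with a mean level at or above the median of all rows. Every search for similar genes here had this limit. Cd82 stood at 1.03, −0.31 and 0.09 on ICH 1 to 3 relative to the sham mean, beside 1.14, −0.32 and 0.15 for Cdkn1a. Sptlc1 and Pla2g15, of sphingolipid and phospholipid metabolism, followed at 0.997 and 0.994, with smaller excursions of 0.26 and 0.36 on ICH 1. These genes were picked as the highest of 7086 over 6 arrays, so r describes these arrays only. For Mdm2 the most similar genes were Mtss1, Mrpl22 and Ythdf3, at 0.971, 0.959 and 0.958.

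The Cdkn1a promoter is shown because this gene is the standard reporter of p53 activity. The sequence is the 250 bases before the RefSeq start site on assembly GRCr8, read along the gene, with matches to the searched motifs in capitals. These are the p53 consensus decamer, the unit that occurs in pairs in p53 response elements, and the TGACG core of the cyclic AMP response element on the opposite strand.
Cdkn1a, chr20:7150682-7150931, plus strand: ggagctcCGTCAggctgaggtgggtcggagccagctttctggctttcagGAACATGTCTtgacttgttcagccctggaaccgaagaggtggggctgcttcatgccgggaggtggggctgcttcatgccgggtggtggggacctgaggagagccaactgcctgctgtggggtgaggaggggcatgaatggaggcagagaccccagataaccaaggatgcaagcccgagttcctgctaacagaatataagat
The decamer matched from base −201 to −192, counted back from the start site. It matched in the promoters of 4 of the 8 genes, Cdkn1a, Ccng1, Sesn1 and Gadd45a, and in 6.64% of the 33465 promoters searched. A match describes letters only, and the promoter of Mdm2, whose p53 elements are known to lie within the gene, had none in this window.

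Ccng1, which encodes cyclin G1, a partner of a phosphatase and of Mdm2, varied most. It read 1.45, 1.47 and −0.65 on sham 1, 2 and 3, with −0.14, 1.67 and −0.24 on ICH 1, 2 and 3. Sham 1, sham 2 and ICH 2 were high and the others low, a range of 5.01-fold that cut across both groups. Its SD among the sham arrays, 1.22, exceeded that of 99.1% of rows, and its SD among the ICH arrays, 1.08, that of 94.0%. The difference between the groups was −0.33 ± 0.77 (95% interval −2.20 to 1.54, adjusted p = 0.844), and it was −1.03 without sham 3 and −0.95 without ICH 2. Without 1 of the other arrays it was near 0 and its sign turned in 3 of 4 cases, at 0.017 without sham 1, 0.032 without sham 2, 0.0087 without ICH 3 and −0.041 without ICH 1. The interval takes in differences of more than 1 log2 unit, a doubling or halving, in both directions.

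The spots of the Ccng1 probe agreed on each array. The processed signal over 2 spots was 16237 ± 889, 16833 ± 786 and 3651 ± 99.0 (SD) on sham 1, 2 and 3, and on ICH 1, 2 and 3 it was 5900.4 ± 384, 21203 ± 270.3 and 5645 ± 169. The split between arrays was thus many times larger than the disagreement between spots. The adrenergic receptor gene Adra2c had the most similar levels (r = 0.975 over 6 arrays), with values relative to the sham mean of 0.45, 0.29 and −0.74 (sham) and −0.67, 0.23 and −0.61 (ICH). Of the lists of cell type markers, that of 12 striatal projection neuron genes was also low on sham 3, with a median of −0.57 against 0.29 and 0.32 on sham 1 and 2. On ICH 1 to 3 it was −0.78, −1.34 and −0.83, so that it was low where Ccng1 was low, on ICH 1 and ICH 3, and lowest where Ccng1 was highest, on ICH 2. All 12 striatal genes had a difference below 0, 8 of them at an unadjusted p under 0.05, and their summed level, in multiples of the 75th percentile, was 19.5 to 35.5 on sham and 11.6 to 16.8 on ICH arrays. Of 9 cortical projection neuron genes 8 had a difference above 0, 7 of them at such a p, and their summed level was 3.22 to 5.46 on sham and 7.96 to 9.54 on ICH arrays. Over all rows 8.56% had such a p with a lower level in ICH and 6.16% with a higher one. The part of the sampled region in the values of Ccng1 and of the other members was not tested.

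**Figure D2:**
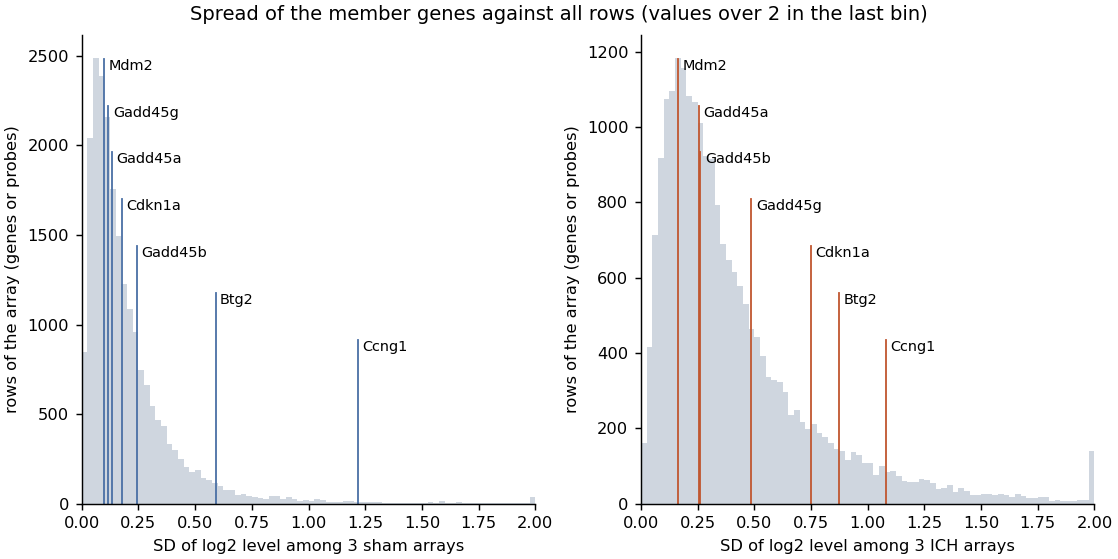
The grey histograms count rows by the SD of their log2 level among the 3 sham arrays (left) and the 3 ICH arrays (right), with values over 2 placed in the last bin, and the coloured lines mark the 7 measured genes. Ccng1 and Btg2 lie in the upper tail on both sides, at 1.22 and 0.59 among sham and 1.08 and 0.87 among ICH arrays, while Mdm2, at 0.10 and 0.16, lies below the medians of 0.14 and 0.31.

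Btg2 encodes an antiproliferative protein that shortens the tails of messenger RNAs, and it is both a p53 target and an immediate early gene of neurons. It read 0.06, −0.95 and 0.09 on sham 1, 2 and 3, with −1.25, 0.37 and −1.02 on ICH 1, 2 and 3. ICH 2 was the highest array and ICH 1 the lowest, and sham 2 lay with the low ICH arrays. The difference was −0.37 ± 0.51 (95% interval −1.59 to 0.86, adjusted p = 0.724), −0.06 without ICH 1 and −0.87 without ICH 2.

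Btg2 was set beside 23 immediate early genes. The list holds genes that neurons switch on within minutes of firing, and others such as the injury factor gene Atf3. The median of that list relative to the sham mean was 0.32, −0.22 and 0.02 (sham) and −0.29, 0.44 and −0.31 (ICH). Btg2 stood at 0.32, −0.68 and 0.36 and at −0.98, 0.64 and −0.75, so that both lay above the sham mean on sham 1, sham 3 and ICH 2 and below it on the others. The same signs on all 6 arrays were shown by 3 genes of the list, Fos, Klf2 and Nr4a1, and by 2.85% of all rows. Fos, the classical immediate early gene, stood on the same scale at 0.40, −0.57 and 0.17 (sham) and −0.34, 0.52 and −0.29 (ICH). Its group difference was −0.04 ± 0.35 (adjusted p = 0.964).

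The Btg2 promoter is shown because it alone among the 8 holds the full cyclic AMP response element, TGACGTCA, the binding site of the activity-regulated factor CREB. Capitals also mark CCAAT boxes and GC boxes (GGGCGG).
Btg2, chr13:48087691-48087940, minus strand: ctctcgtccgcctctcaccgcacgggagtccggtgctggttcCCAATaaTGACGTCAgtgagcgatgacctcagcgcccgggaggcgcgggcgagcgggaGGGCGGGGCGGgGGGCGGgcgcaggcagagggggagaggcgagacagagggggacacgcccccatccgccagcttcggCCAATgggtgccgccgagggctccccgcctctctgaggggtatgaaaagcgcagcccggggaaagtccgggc
The element lay from base −201 to −194. It was present in 1.59% of all promoters searched. The 250 bases were 72.0% G and C, where the median promoter had 51.2%.

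The GADD45 genes encode small proteins that bind the stress kinase MTK1 (Map3k4), the DNA replication clamp and mitotic kinase complexes, and that also take part in active DNA demethylation. Gadd45a is the p53 target of the family, and the other two are induced mainly by cytokines and by neuronal activity. Differences for Gadd45b and Gadd45g were 0.45 and 0.44 and that for Gadd45a was 0.01, and none of the 3 passed the test.

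Gadd45a read 0.40, 0.57 and 0.31 on sham 1, 2 and 3, with 0.68, 0.47 and 0.17 on ICH 1, 2 and 3. The ICH values surrounded the sham values. The difference was 0.01 ± 0.17 (95% interval −0.41 to 0.44, adjusted p = 0.977), and with 1 array left out it ran from −0.10 to 0.15.

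Gadd45b read 0.20, 0.42 and −0.06 on sham 1, 2 and 3, with 0.89, 0.66 and 0.37 on ICH 1, 2 and 3. ICH 1 and ICH 2 lay above all sham arrays, and ICH 3 lay just under sham 2. The difference was 0.45 ± 0.20, or 1.37-fold (95% interval −0.04 to 0.94, unadjusted p = 0.0648, adjusted p = 0.361). This was the smallest p among the 7 genes, and 74.3% of rows had a smaller difference in either direction. With 1 array left out the difference stayed between 0.33 and 0.59, and the unadjusted p was 0.0319 without ICH 3 (adjusted p = 0.205) and from 0.0507 to 0.205 without 1 of the others. Without ICH 3, 4688 of all 22179 rows had an unadjusted p under 0.05.

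Gadd45g read −0.70, −0.56 and −0.47 on sham 1, 2 and 3, with 0.11, 0.18 and −0.70 on ICH 1, 2 and 3. ICH 1 and ICH 2 were well apart from the sham arrays, and ICH 3 lay level with sham 1. The difference was 0.44 ± 0.26, or 1.36-fold (95% interval −0.19 to 1.07, adjusted p = 0.441). It was 0.72 without ICH 3 (unadjusted p = 0.00399, adjusted p = 0.120) and 0.28 without ICH 2.

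Summed levels of several marker lists were high on the ICH arrays where Gadd45g was. Relative to the sham mean Gadd45g stood at 0.68, 0.76 and −0.12 on ICH 1 to 3. The median of 11 reactive astrocyte markers, 9 of them with a difference above 0, stood at 0.91, 1.24 and −0.42. On sham 1 to 3 the signs were opposite, with Gadd45g at −0.12, 0.02 and 0.11 and that median at 0.05, −0.02 and −0.04. The same signs as Gadd45g on all 6 arrays were shown by 1 of the 11 markers, Gfap, and by 2.19% of all rows. Among 12 markers of activated myeloid cells and monocytes 4 did so, Ccr2, Cd14, Cd163 and Lgals3. The summed level of the reactive astrocyte markers, in multiples of the 75th percentile, was 6.82 to 7.52 (sham) and 21.8, 32.1 and 5.47 on ICH 1 to 3. For 12 markers of activated myeloid cells and monocytes, 11 with a difference above 0 and Lyz2 below it at −0.44, it was 4.61 to 6.01 on sham arrays and 11.9, 13.1 and 4.28 on ICH 1 to 3. For 8 neutrophil markers it was 0.12 to 0.26 and then 0.97, 1.33 and 0.27. Of these 5 had a difference above 0, and Camp, Ltf and Ngp had differences of −0.0055, −0.45 and −0.75. The neutrophil genes Cxcr2, Elane and Mmp8 were not among the tested rows. Of the 8 tested, 5 were well above background on all 6 arrays. Mmp9 was so on 0 sham and 3 ICH arrays, Cxcr1 on 1 and 3, and Ltf on 3 and 0. Trem1 of the myeloid list was so on 0 sham and 3 ICH arrays. The filter alone could thus in part set the directions of these genes. A summed level is set mostly by the brightest genes of its list. Arg1, Spp1 and Trem1 of the myeloid list and Cxcr1 and Mmp9 of the neutrophil list had all ICH arrays above all sham arrays. Of all rows 11.0% did so. On ICH 3 these genes stood at 1.10, 1.25, 1.17, 4.75 and 2.62 relative to the sham mean. The median of the myeloid list was −0.22 there, and that of the neutrophil list −0.0039. The part of astrocytes, myeloid cells and neutrophils in the Gadd45g and Gadd45b values was not tested.

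The genes most like Gadd45g in level were Gpr84, a fatty acid receptor gene of activated microglia and macrophages, Capg, an actin-capping protein gene of macrophages, and Plin2, which coats lipid droplets. Their r over the 6 arrays was 0.999, 0.995 and 0.995. Relative to the sham mean Gpr84 stood at 1.43, 1.55 and −0.27 on ICH 1 to 3, Capg at 1.94, 1.98 and −0.09 and Plin2 at 1.24, 1.52 and −0.28. The same step from ICH 1 and ICH 2 to ICH 3 was therefore larger in these genes than in Gadd45g. Likeness was to be looked up for Cdkn1a and Mdm2, and was added for Gadd45g, Ccng1 and the other genes after their values were seen. For Gadd45b the most similar genes were Tmem14c, Ppp6c and Tmod1 (r = 0.990, 0.984 and 0.975), none of them on the astrocyte or myeloid lists. For Btg2 they were Tcte1, Mmp14 and Scg3 (0.981, 0.969 and 0.968), none of them on the immediate early list. For Gadd45a they were Bckdha, Rtp4 and Myd88 (0.987, 0.969 and 0.965).

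The promoters of the family are shown together, as both Gadd45b and Gadd45g lay above all sham arrays on ICH 1 and ICH 2, whereas Gadd45a did so on ICH 1 and lay within the sham range on ICH 2. Capitals mark the p53 consensus decamer, the TGACG core, the TATA box TATAAA, the CCAAT box, the GC box and the E box CACGTG.
Gadd45a, chr4:97486800-97487049, minus strand: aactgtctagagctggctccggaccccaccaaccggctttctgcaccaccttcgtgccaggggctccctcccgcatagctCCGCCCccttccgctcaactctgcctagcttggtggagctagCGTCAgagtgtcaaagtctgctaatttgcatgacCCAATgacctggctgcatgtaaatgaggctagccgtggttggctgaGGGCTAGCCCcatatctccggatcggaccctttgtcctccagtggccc
Gadd45b, chr7:9430719-9430968, minus strand: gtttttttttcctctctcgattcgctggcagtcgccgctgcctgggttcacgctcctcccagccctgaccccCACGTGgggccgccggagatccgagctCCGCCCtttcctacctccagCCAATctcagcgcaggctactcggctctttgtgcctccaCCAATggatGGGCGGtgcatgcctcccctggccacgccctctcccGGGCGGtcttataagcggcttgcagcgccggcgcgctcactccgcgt
Gadd45g, chr17:13530352-13530601, minus strand: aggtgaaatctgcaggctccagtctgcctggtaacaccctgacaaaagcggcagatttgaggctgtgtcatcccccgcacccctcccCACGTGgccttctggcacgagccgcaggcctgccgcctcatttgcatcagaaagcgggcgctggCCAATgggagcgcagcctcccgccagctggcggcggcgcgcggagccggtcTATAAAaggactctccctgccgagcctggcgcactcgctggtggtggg
The E box was in Gadd45b from base −178 to −173 and in Gadd45g from −163 to −158, in no other of the 8 promoters, and in 5.59% of all promoters. The decamer was in Gadd45a alone of the 3, from base −48 to −39. Any link between these matches and the levels on the arrays was not tested. Motifs for the transcription factors AP-1 (TGANTCA) and STAT (TTCNNNGAA), searched on both strands like the rest, were in none of the 8 and in 6.34% and 7.67% of all promoters. Among the other motifs, the CCAAT box was in 7 of the 8 and 34.0% of all promoters, the GC box in 6 and 30.5%, the TGACG core, which lies within TGACGTCA, in 5 and 18.2%, and the TATA box in 1, Gadd45g, and 12.9%.

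**Figure D3:**
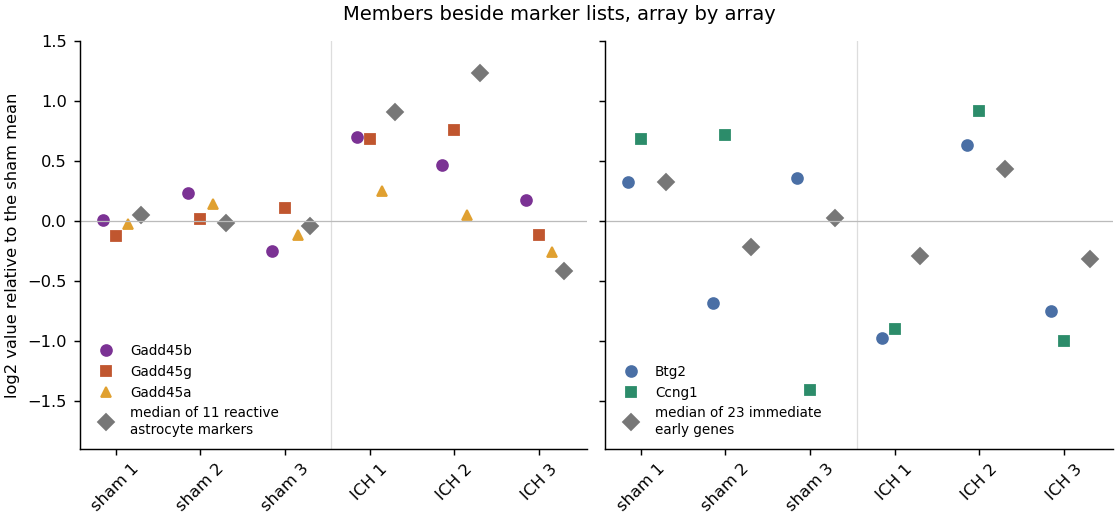
Points give log2 values relative to the sham mean on each array, for the 3 GADD45 genes with the median of 11 reactive astrocyte markers (left) and for Btg2 and Ccng1 with the median of 23 immediate early genes (right); points are set side by side only to keep them apart. Gadd45g and the astrocyte median are high on ICH 1 and ICH 2 and under 0 on ICH 3, and on the sham arrays their signs are opposite. Btg2 is above 0 on the arrays where the immediate early median is.

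**Figure D4:**
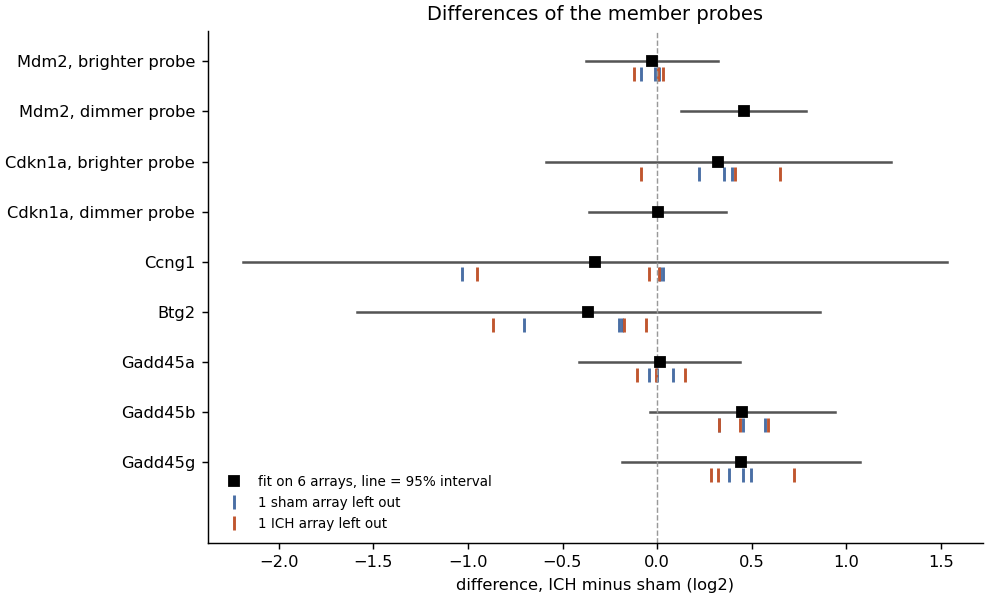
Squares give the difference of each member probe, ICH minus sham on the log2 scale, and lines its 95% interval from limma; ticks under the square give the difference with 1 sham (blue) or 1 ICH (orange) array left out, for the probe used for the gene. Only the interval of the dimmer Mdm2 probe, 0.13 to 0.79 without adjustment for the number of probes, leaves out 0, and the ticks of Ccng1 and Btg2 lie far apart.

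The 7 genes were then set among other genes of the pathway, chosen for their roles. Atm, the kinase that signals DNA breaks to p53, differed by 0.62 ± 0.18 (adjusted p = 0.301) and was well above background on 2 of 3 sham and 3 of 3 ICH arrays. The kinase gene Chek2, downstream of Atm, differed by 0.47 ± 0.31, Mdm4, the partner of Mdm2, by 0.16 ± 0.15, and Ppm1d, a phosphatase that turns the response off, by 0.11 ± 0.12. The kinase gene Hipk2, named after its value was seen, differed by −0.54 ± 0.17 (adjusted p = 0.302).

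Of 36 other p53 target genes 27 were tested, with differences above 0 in 14 and below it in 13 and a median of 0.0083, and 0 passed the adjusted test. An unadjusted p under 0.05 was found for 4 above 0 and 2 below; over all rows the shares were 6.16% and 8.56%. Among the targets that start cell death, Bax differed by −0.0049 ± 0.14 and Bbc3, which encodes PUMA, by 0.44 ± 0.34, with a level of −0.91 on ICH 2 and −2.06 and −2.05 on ICH 1 and ICH 3. The death receptor gene Fas differed by −0.10 ± 0.31, where another probe gave 0.77. Pmaip1, which encodes NOXA, was not well above background on enough arrays to be tested. None of the 3 measured passed the test.

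Among the other targets named by role, Gdf15, a secreted stress cytokine, differed by 0.54 ± 0.18 (adjusted p = 0.304), with all ICH arrays above all sham arrays. Sesn2, a relative of Sesn1 and a leucine sensor that restrains mTORC1, differed by 0.45 ± 0.14 (adjusted p = 0.301), with values relative to the sham mean of 0.57, 0.34 and 0.44 on ICH 1 to 3 and from −0.12 to 0.12 on sham arrays. The third sestrin, Sesn3, differed by −0.15 ± 0.17. Phlda3, an inhibitor of AKT, differed by 0.41 ± 0.28, and the polo-like kinase genes Plk2 and Plk3 by 0.15 ± 0.16 and 0.31 ± 0.17. Zmat3, an RNA-binding protein gene that p53 induces, differed by −0.47 ± 0.20 (unadjusted p = 0.0510, adjusted p = 0.342), with all ICH arrays below all sham arrays, and its other probe gave −0.26. The membrane protein gene Perp (0.72 ± 0.21), Gtse1 (−0.52 ± 0.21) and Steap3 (−0.35 ± 0.14) also had an unadjusted p under 0.05 and were named after their values were seen.

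Of 11 family relatives of the members, all tested, 8 had a difference above 0 and 3 below it, with a median of 0.16. An unadjusted p under 0.05 was found for 1 of the 11, Sesn2, and for 14.7% of all rows. Ccng2, the second cyclin of the G class, differed by 0.30 ± 0.18 and its ICH arrays lay 0.05 to 0.63 above the sham mean, all above the sham arrays, which had an SD of 0.02. Another Ccng2 probe gave 0.28 ± 0.16, with ICH 2 below sham 2 and an SD of 0.16 among the sham arrays. Btg1 differed by −0.19 ± 0.14, and Tob1, of the same antiproliferative family, by 0.25 ± 0.59, with 1.61 on ICH 2 and −0.85 on ICH 1 relative to the sham mean. Of 14 genes that work with the GADD45 proteins, stress kinase genes and the DNA glycosylase gene Tdg, 13 were tested, with differences above 0 in 7 and below it in 6 and a median of 0.03. Map3k4 differed by 0.26 ± 0.14. The 3 genes with an unadjusted p under 0.05, named after their values were seen, were the kinase genes Map2k4 (0.44 ± 0.12) and Mapk9 (0.42 ± 0.16) and, lower, Mapk14 (−0.40 ± 0.15). Over all rows 6.16% had such a p with a higher level in ICH and 8.56% with a lower one.

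**Figure D5:**
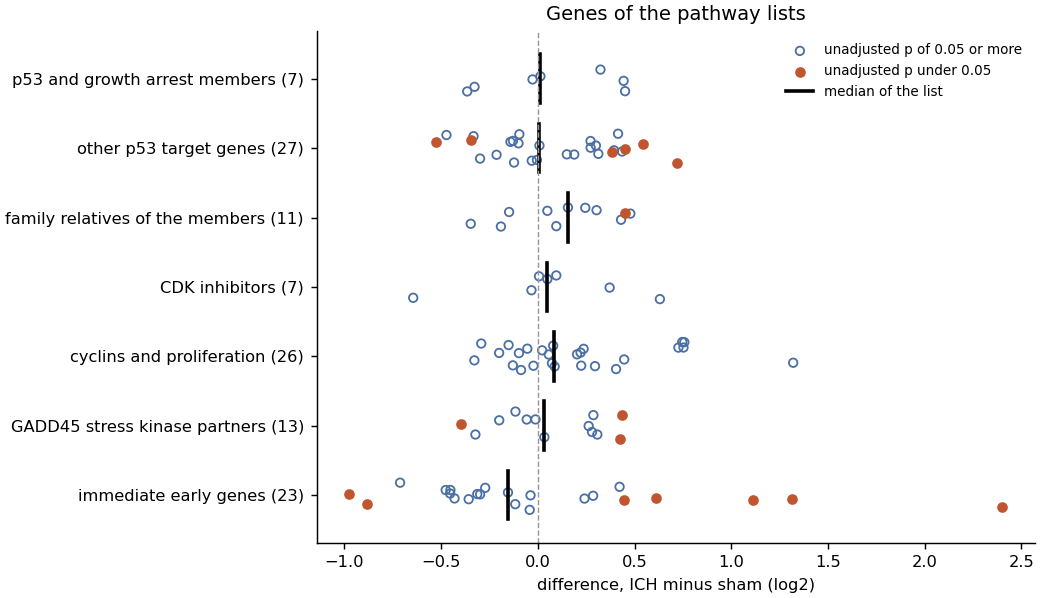
Each point is 1 gene of a list, placed by its difference, ICH minus sham on the log2 scale, with filled points for an unadjusted p under 0.05, black bars for the median of the list and the number of genes tested in brackets. List medians lie between −0.15 and 0.16, and the 7 measured members lie between −0.37 and 0.45.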

How the data were processed

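Total RNA from 6 rat brain samples was hybridized to Agilent single-channel arrays, labelled with Cy3 after linear amplification per the labels' protocols. Per the file headers, the intensity values come from Agilent Feature Extraction 11.5.1.1, which subtracts background and detrends within each array; the submitters' processing notes name version 10.7. Per the file headers, other columns hold flags of 0 or 1 for each spot. The deposited log2 table equals the values used here plus a constant of 0.28 to 0.32 for each array, within 0.001 for 98.5% to 99.3% of probes and for all 9 member probes.

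Control spots and spots marked not uniform (1 to 9 per array) were left out, and spots of the same probe were averaged after each array’s 75th percentile was subtracted from its log2 intensity. Probes well above background, in at least 0.5 of their spots, on at least 3 of 6 arrays were kept. Accessions were matched to RefSeq transcripts (GRCr8, names only), which named 18355 of 30367 probes, and the brightest probe stood for a gene; single probes were also fitted. Tests used limma 3.58.1 in R 4.3.3, without covariates, and were tested on simulated data. All arrays share 1 slide and 1 scan. Sham 1 to 3 and ICH 1 lie in row 1 of the slide and ICH 2 and ICH 3 in row 2, so row and group are partly confounded. Promoters are from RefSeq on GRCr8, matched for 8 of 8 genes. The number of arrays limits the precision. Tables and figures used Python 3.11.15, pandas 2.3.3 and matplotlib 3.10.9.

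The members, lists and named genes were chosen with earlier results of these data known: all members, genes of the other lists by role, and the 3 genes most like Cdkn1a and Mdm2 in level. Some results that these rules name are not reported here. Alternatives were normexp background correction (offset 50, on median signals, as the files lack the mean), quantile normalization, median or spike-in centring, the deposited values, other filters, marked spots kept, all probes of a gene averaged, a variance trend, array weights, blocks and leaving out each array.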

Additional observations from a re-analysis of the deposited data

How the results depend on the processing

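No member passed an adjusted p under 0.05 under any of the 19 alternatives run, and Gadd45b and Gadd45g were higher in ICH under all of them, at 0.33 to 0.92 and 0.28 to 0.91. At an unadjusted p under 0.05 there were 0 members in the reported fit, 1 with an intensity trend and robust variance (Gadd45b), 2 with the slide row as a block (Cdkn1a and Gadd45b), which leaves only ICH 1 against sham, 3 with spike-in centring (Cdkn1a, Gadd45b and Gadd45g), and 0 to 2 with 1 array left out, which were Gadd45b and Gadd45g without ICH 3. Rows called, 0 in the reported fit, numbered 3 with normexp, 2 with the filter on all 6 arrays, 3 with an intensity trend, 6 with array weights, 37 with spike-in centring and 0 to 36 with 1 array left out (8 without ICH 2 and 36 without ICH 3). Rows at an unadjusted p under 0.05 numbered 5908 with spike-in centring, of which 5758 were higher, 3461 with an intensity trend, 2699 with the slide row block and 1346 to 4688 with 1 array left out (1346, 2012 and 1732 without sham 1, 2 and 3), against 3265.

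Directions of the small differences were not stable. Spike-in centring, which moved the median of all rows from −0.04 to 0.43, gave 0.44 for Mdm2, 0.14 for Ccng1 and 0.10 for Btg2. The mean of both probes gave 0.22 for Mdm2, and median centring gave −0.055 for Gadd45a and, at an unadjusted p under 0.05, 890 rows higher and 2383 lower, against 1366 and 1899. With 1 array left out the ranges were −0.12 to 0.032 for Mdm2, −0.086 to 0.65 for Cdkn1a, −1.03 to 0.032 for Ccng1 and −0.10 to 0.15 for Gadd45a. The cause was not tested. Same-numbered sham and ICH arrays did not deviate together (correlations −0.19, −0.01 and 0.07), and with the replicate block 2409 rows had an unadjusted p under 0.05 and 0 were called.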

Other observations

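Genes of the cell cycle that Cdkn1a and its relatives restrain differed between the ICH arrays more than between the groups. Over all rows the median SD was 0.31 among ICH and 0.14 among sham arrays, and the median difference was −0.04. Of 28 cyclin and proliferation genes 26 were tested, with differences above 0 in 17 and below it in 9 and a median of 0.08, and 0 passed the adjusted test or had an unadjusted p under 0.05. The median of the list was −0.12 to 0.13 on sham arrays and 0.49, 0.41 and −0.37 on ICH 1 to 3. The medians of the reactive astrocyte and myeloid lists were likewise above 0 on ICH 1 and ICH 2 and below it on ICH 3. Relative to the sham mean Mki67, a marker of cycling cells, stood at −0.67, 0.45 and 0.22 on sham 1 to 3. On ICH 1 to 3 it stood at 0.56, 0.44 and −1.26, so that ICH 2 lay within the sham range. The replication helicase gene Mcm3, named after its values were seen, stood at −0.46, 0.31 and 0.15 (sham) and at 1.49, 1.55 and −0.86 (ICH). Ccnd1, which drives entry into the cycle, differed by 0.22 ± 0.30.

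All 7 inhibitors of cyclin-dependent kinases outside the members were tested. Differences were above 0 in 5 and below it in 2, the median was 0.05, and there were 0 at an unadjusted p under 0.05. Cdkn1b differed by 0.05 ± 0.23. Cdkn2a, whose locus also encodes the Mdm2 inhibitor ARF, differed by 0.63 ± 0.41 and, like the brighter probe of Cdkn1a, was highest on ICH 1, at a level of −5.02, with −6.49 and −6.17 on ICH 2 and ICH 3 and −6.92 to −6.20 on sham arrays.

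Of 23 immediate early genes tested, 8 had a difference above 0 and 15 below it, and the median was −0.15. An unadjusted p under 0.05 was found for 5 on the higher and 2 on the lower side, where the shares over all rows were 6.16% and 8.56%. Egr1 differed by −0.48 ± 0.38 and the injury factor gene Atf3 by −0.15 ± 0.65. Named after their values were seen, Nr4a3 (1.11 ± 0.25), Nr4a2 (0.44 ± 0.14) and Jun (0.61 ± 0.24) lay above all sham arrays on all ICH arrays, and Egr2 (−0.98 ± 0.34) and Egr4 (−0.88 ± 0.32) below. The others of the 5, Fosl1 (2.40 ± 0.97) and Myc (1.31 ± 0.53), had larger differences but lay within the sham range on ICH 3.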
